A study of Mus musculus with 59 samples.

Results

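The effect of Dyrk1a heterozygosity on the cortical transcriptome was measured by RNA sequencing pooled over 3 treatments. All 59 libraries of the series entered, 30 from heterozygous mice (Dyrk1a+/I48X, here Het) and 29 from wild-type mice (here WT), and 17901 of 18088 genes passed the filter on low values. RNA came from the prefrontal cortex of C57BL/6J mice at postnatal day 25, after vehicle, lithium or fluoxetine had been given from postnatal day 3 to 24 through the dam's milk. In the vehicle arm there were 10 Het mice and 10 WT mice, in the lithium arm 10 and 10, and in the fluoxetine arm 10 and 9, each with 5 females and 5 males except the WT fluoxetine males, of which there were 4. The labels name no Cre driver or conditional allele for the mutation, and each library is 1 mouse. The labels name no litters, and pups of 1 dam share its milk and drug, so each p-value reflects only how much these animals vary.

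DYRK1A is a kinase that phosphorylates serine and threonine residues of its substrates and activates itself by phosphorylating a tyrosine during translation. It acts in the nucleus on transcription regulators and splicing factors and in the cytoplasm on regulators of calcineurin signalling, the cell cycle and the cytoskeleton, and DCAF7, a WD-repeat protein, is a scaffold that binds it and its close relative DYRK1B. Its dosage matters for brain growth: an extra copy is present in Down syndrome, and loss of 1 copy in people causes a syndrome with small head size, intellectual disability and autism. The label I48X names a stop codon in place of isoleucine 48. In the reference transcript Dyrk1a-201 that codon lies in coding exon 2 of 11, at 94659628 to 94659630 on chromosome 16 of GRCm38, plus strand, near the start of an open reading frame of 763 codons. The reference (wild-type) sequence around it is shown with the isoleucine codon in capitals, since this is the site at which the groups differ by design; the mutant bases are not given in the labels.
Dyrk1a, chr16:94659598-94659660, plus strand: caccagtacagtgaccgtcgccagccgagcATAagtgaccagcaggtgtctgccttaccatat

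The libraries held 24391022 to 33842466 counts, with a median of 29297693 in Het mice and 26397524 in WT mice. Levels are given as the deposited normalised counts, which are counts divided by a size factor of each library, and a change is Het minus WT on the log2(value + 1) scale with its standard error after ±. A gene is called where limma's adjusted p is at or under 0.05. The libraries differed in the level of olfactory bulb markers. Doc2g and Cdhr1, both strongly expressed in olfactory bulb projection neurons, ran from 126 to 8273 and from 189 to 10586 normalised counts in Het mice, against 115 to 4534 and 116 to 6695 normalised counts in WT mice. Their mean log2 level was 10.88 ± 1.80 in Het mice and 10.01 ± 1.87 in WT mice (SD, n = 30 and n = 29). Within blocks of treatment and sex the Het mean was 0.81 higher, which did not pass a two-sided permutation test (p = 0.0962, 100000 resamples). Without Het fluoxetine male replicates 3 and 4 the difference was 1.004 and passed that permutation test (p = 0.0293). The separation was uneven across arms. The medians were 11.60 in Het mice and 8.38 in WT mice under vehicle, 11.52 and 9.23 under lithium, and 11.52 and 11.61 under fluoxetine. The separation also differed by sex. In males the means were 12.18 in Het and 7.92 in WT under vehicle, 10.915 and 8.94 under lithium, and 9.298 and 11.75 under fluoxetine. In females they were 10.23 and 10.38, 10.79 and 10.03, and 11.85 and 11.36, in that order. Under vehicle the lowest Het male, at 10.38, lay above the highest WT male, at 9.85. How well the fit separates genotype from this level in males was not tested. The level tracked 10750 genes in the fit (60.1% of those tested), so it was held as a covariate in every comparison, with treatment and sex as blocks. All 18 genes of an olfactory bulb list and all 32 genes of a cortical projection neuron and layer list passed the filter. Centred on the average library, the bulb list mean spanned -2.36 to 2.04 log2 units in Het mice and -2.51 to 1.44 in WT mice. In bulk RNA, fewer cells of a type and less RNA per cell cannot be told apart.

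**Figure D1:**
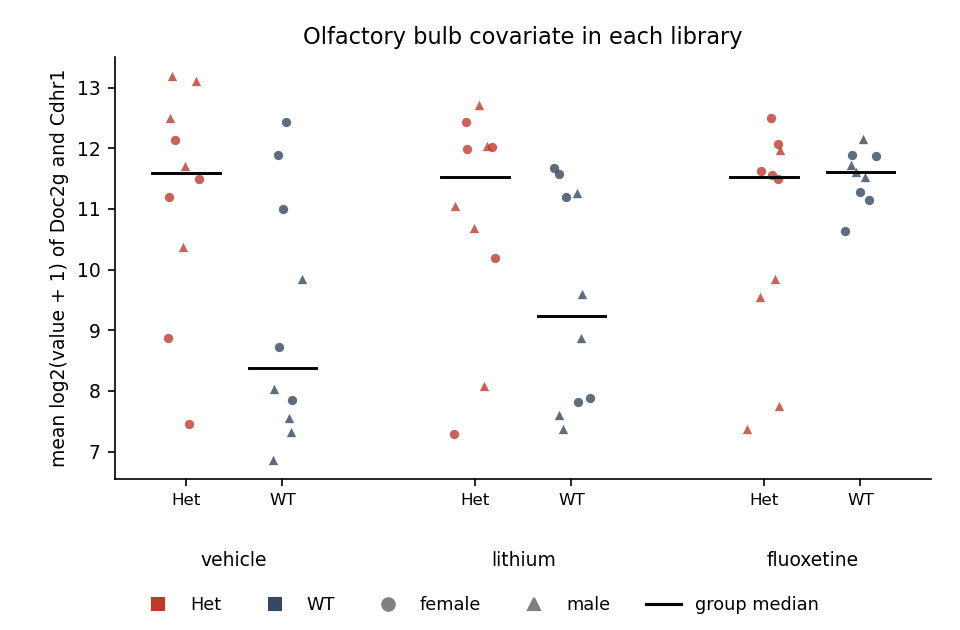
Mean log2(value + 1) of Doc2g and Cdhr1 in each library (y axis) by treatment and genotype (x axis), with circles for females, triangles for males and bars for group medians. WT vehicle and lithium mice sit mostly low, with medians of 8.38 and 9.23, while WT fluoxetine mice all sit above 10.6, and Het mice span the range in each treatment.

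Dyrk1a RNA was not lower in Het mice in any treatment. Summed over the gene (chromosome 16, 94570010 to 94695517, GRCm38), it ran from 2141 to 4214 with a median of 2319.7 normalised counts in Het mice, against 2066 to 2327 with a median of 2185 in WT mice. 28 of 30 Het mice lay above the WT median and 15 above the highest WT mouse, so the groups overlapped. The pooled log2 change was 0.16 ± 0.031 (limma adjusted p = 0.00331), a fold of 1.12. Het fluoxetine male replicates 3 and 4 held 4214 and 3278 normalised counts, above the 3rd highest Het mouse at 2530.4. Without these 2 mice the change was smaller, 0.10 ± 0.014, and the test stronger (adjusted p = 2.24e-05). By treatment the changes were 0.13 ± 0.056 under vehicle, 0.14 ± 0.054 under lithium and 0.20 ± 0.054 under fluoxetine. The values add the transcripts of both alleles, so they do not read the genotype and do not check the labels.

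Dyrk1b and Dcaf7 rose with it. Dyrk1b, the nearest paralog of Dyrk1a (chromosome 7, 28179469 to 28187294), ran from 606 to 777 with a median of 699 normalised counts in Het mice, against 586 to 719 with a median of 638 in WT mice. 28 of 30 Het mice exceeded the WT median and 9 the WT maximum. The change was 0.10 ± 0.019 (adjusted p = 0.0017), with 0.12 ± 0.034, 0.10 ± 0.033 and 0.087 ± 0.033 under vehicle, lithium and fluoxetine. Dcaf7, the scaffold (chromosome 11, 106036872 to 106059324), ran from 7337 to 10284 with a median of 9018 in Het mice, against 7526 to 9041 with a median of 8302 in WT mice. Its change of 0.094 ± 0.016 (adjusted p = 0.000608) was nearly the same in each arm, at 0.092 ± 0.029, 0.10 ± 0.028 and 0.089 ± 0.029, and 29 of 30 Het mice lay above the WT median. The exception was 1 Het fluoxetine male, which was below every WT mouse. Without replicates 3 and 4 of the Het fluoxetine males, both calls held (Dyrk1b 0.11 ± 0.019, Dcaf7 0.10 ± 0.015). Of 13 tested members of a list of DYRK, HIPK and CLK kinases with the scaffold, 4 rose and 0 fell, where 0.916% of all genes rose, with a median of 0.036 against -0.00013 over all genes tested. The 4th was Clk2, a kinase of splicing factors (0.088 ± 0.021, adjusted p = 0.0213), which did not pass without the 2 mice (adjusted p = 0.0664).

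**Figure D2:**
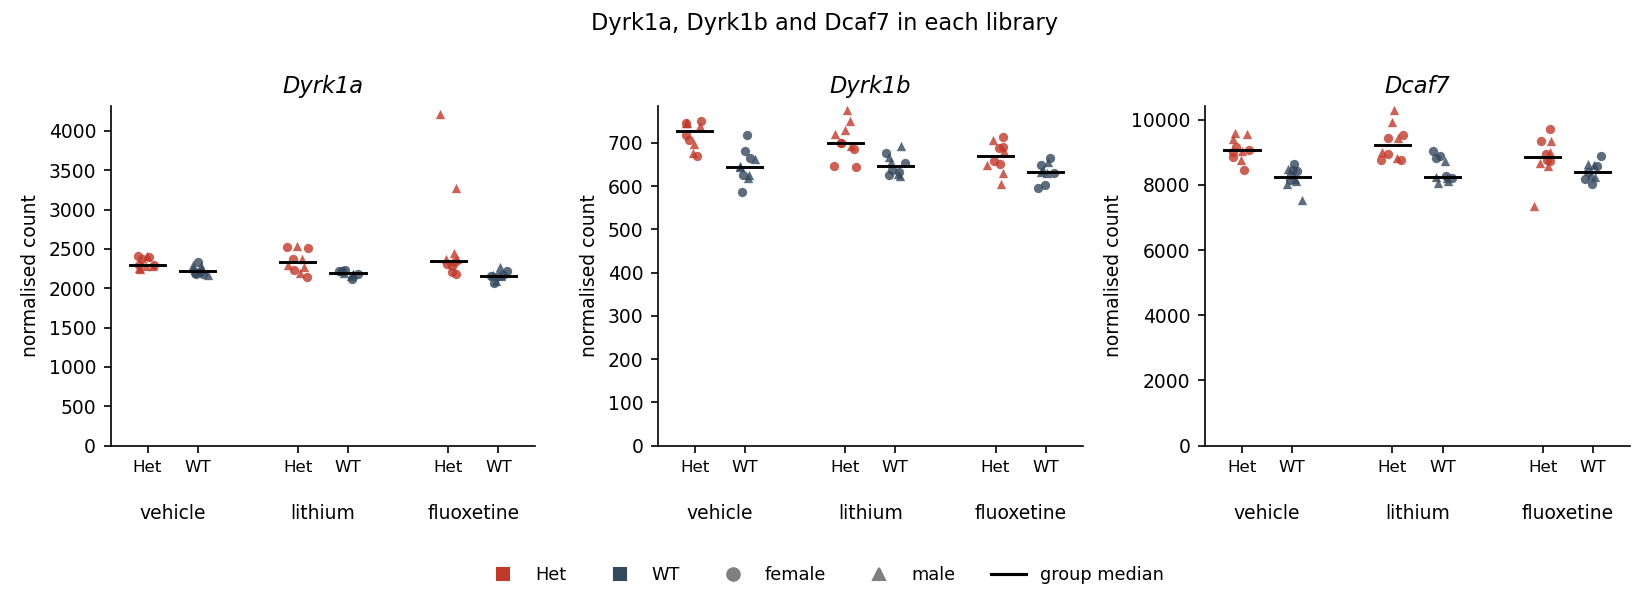
Normalised counts (y axes, from 0) of Dyrk1a, Dyrk1b and Dcaf7 in each library by treatment and genotype, with circles for females, triangles for males and bars for medians. Het medians lie above WT medians in each arm for all 3 genes, and 2 Het fluoxetine males stand apart for Dyrk1a at 4214 and 3278.

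Over all genes, 403 passed limma's test with Benjamini-Hochberg adjustment at 0.05 (2.25% of 17901), 164 higher (0.916%) and 239 lower (1.34%) in Het mice. The changes were small: their median size was 0.152 on the log2 scale, and 8 genes exceeded 1.5-fold, 1 higher and 7 lower, all 8 below the median expression level. With TMM factors in place of the deposited scaling the split was 184 higher and 179 lower, and edgeR's quasi-likelihood test on the recovered counts called 374 higher and 206 lower (3.24%), with 365 genes shared. Of the 403 genes, 400 had 1 sign in all 3 treatments (2.23% of genes tested), where 45.8% of all genes, called or not, had 1 sign, a share that a test pooled over treatments favours by construction. A stricter reading, an unadjusted p under 0.05 with 1 sign in each treatment separately, was met by 46 genes (0.257%), 33 higher and 13 lower. All 46 were among the 403, which is favoured by construction, since the pooled test uses the same libraries. Without the bulb covariate 2984 genes were called (16.7%), 388 of them among the 403.

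The count of calls depended on single libraries, and most on 2 of them. Leaving out 1 library at a time gave 68 calls without Het fluoxetine male replicate 4 to 1030 without Het fluoxetine male replicate 5, and 17 of the 59 libraries moved the count by over 1.5 times. Het fluoxetine male replicates 3 and 4 had the lowest covariates of the fluoxetine arm, 7.38 and 7.76, where WT fluoxetine mice ran from 10.63 to 12.15. Their glucocorticoid list means, centred in the same way, were 1.29 and 0.44, where WT mice ran from -0.30 to 0.19. Without them 48 genes were called (0.269% of 17861), 35 higher and 13 lower, and 39 of these were among the 403. All 403 kept their sign, but their median size was 0.104 in place of 0.152. The part of these values in the lost calls was not tested. The 39 genes called both ways, 27 higher and 12 lower, were also all called by edgeR, had 1 sign in both sexes, and 38 of them were called with no covariate. These readings reuse the libraries by which the 39 were chosen, so they are not separate support. The 39 genes are described first, and a gene that was lost without the 2 mice is marked as such.

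**Figure D3:**
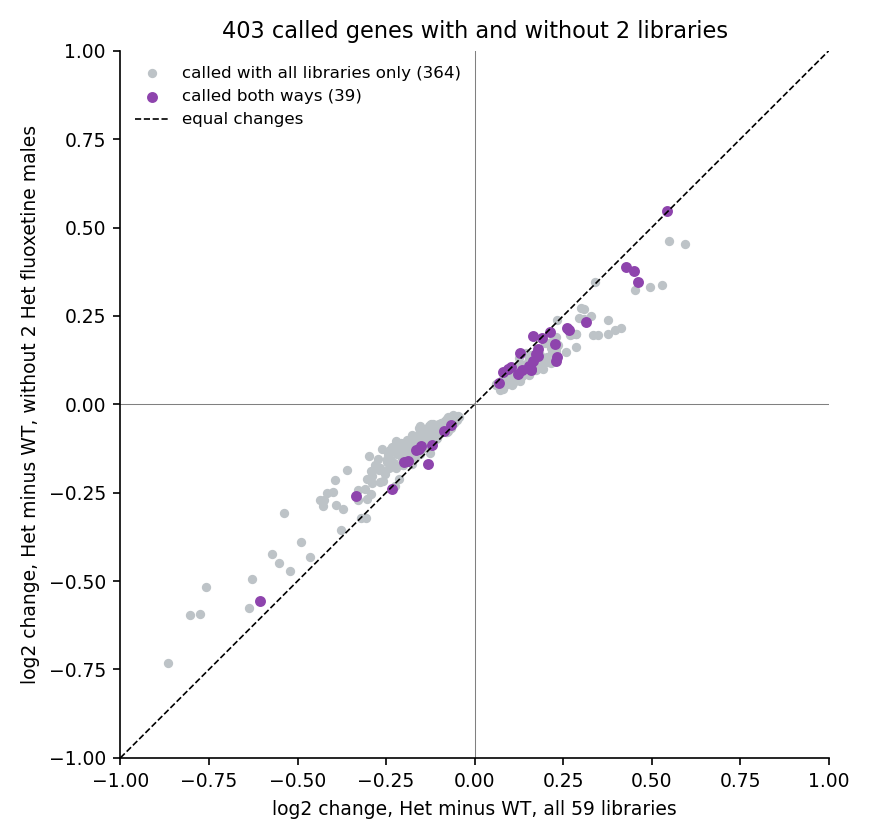
Log2 change, Het minus WT, of the 403 called genes with all 59 libraries (x axis) and without Het fluoxetine male replicates 3 and 4 (y axis); purple points were called both ways and grey points only with all libraries. All points keep their sign, and most lie nearer to 0 than the dashed line of equal changes; 39 points are purple.

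The smallest p-value belonged to Ucp2, an uncoupling protein of the inner mitochondrial membrane (chromosome 7, 100493337 to 100502020). It ran from 577 to 1448 with a median of 801 normalised counts in Het mice, against 508 to 743 with a median of 609 in WT mice. 29 of 30 Het mice were above the WT median and 21 above every WT mouse. The medians were 733 in Het mice and 577 in WT mice under vehicle, 834 and 650.4 under lithium, and 887 and 599 under fluoxetine. The pooled change was 0.45 ± 0.05, a fold of 1.37 (limma adjusted p = 3.43e-08), and it was 0.38 ± 0.068 in females and 0.53 ± 0.071 in males. The highest values, 1448 and 1439, came from the 2 Het fluoxetine males named above, without which the change was 0.38 ± 0.042 (adjusted p = 3.25e-08).

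Rfx5 and Pnrc1, both regulators of transcription, had the next smallest p-values. Rfx5, a subunit of the factor that activates class II major histocompatibility genes (chromosome 3, 94954075 to 94961561), ran from 709 to 1243 with a median of 802 normalised counts in Het mice, against 606 to 765 with a median of 678 in WT mice. All 30 Het mice lay above the WT median and 20 above the WT maximum, for a change of 0.21 ± 0.026 (adjusted p = 1.99e-07). Pnrc1, a coactivator of nuclear receptors (chromosome 4, 33245423 to 33290163), showed a like separation, from 708 to 1058 with a median of 817 in Het mice, against 626 to 789.7 with a median of 703 in WT mice. Its change was 0.19 ± 0.025 (adjusted p = 1.34e-06), and 0.20 ± 0.045, 0.19 ± 0.043 and 0.18 ± 0.044 under vehicle, lithium and fluoxetine. Its relative Pnrc2 rose by 0.08 (adjusted p = 0.0341), with 0.0012 under vehicle alone. Pnrc2 lost its call when 1 of Het fluoxetine male 4, Het lithium female 1, WT fluoxetine male 3 or WT fluoxetine male 4 was left out (adjusted p = 0.0505 to 0.0614), with quantile normalization (0.0544) and with the bulb list mean as covariate (0.0545). Mxd4, a partner of MAX that opposes MYC, ran from 2945 to 4098 with a median of 3710.1 in Het mice, against 3008 to 3911 with a median of 3271 in WT mice (change 0.13 ± 0.022, adjusted p = 0.000514). The genotypes did not overlap in the lithium arm, but over all arms 6 of 30 Het mice exceeded the highest WT mouse. Under fluoxetine 1 Het mouse lay below every WT mouse of that arm. How many of all genes separate in 1 arm was not counted. Rises were also measured for the antiproliferative factor Tob2 (0.17 ± 0.034), the histone demethylase Kdm4a (0.16 ± 0.035), the histone deacetylase-associated Phf12 (0.12 ± 0.027), and Tspyl2, an X-linked member of the nucleosome assembly protein family (0.13 ± 0.028), with adjusted p values of 0.00418 to 0.0124.

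**Figure D4:**
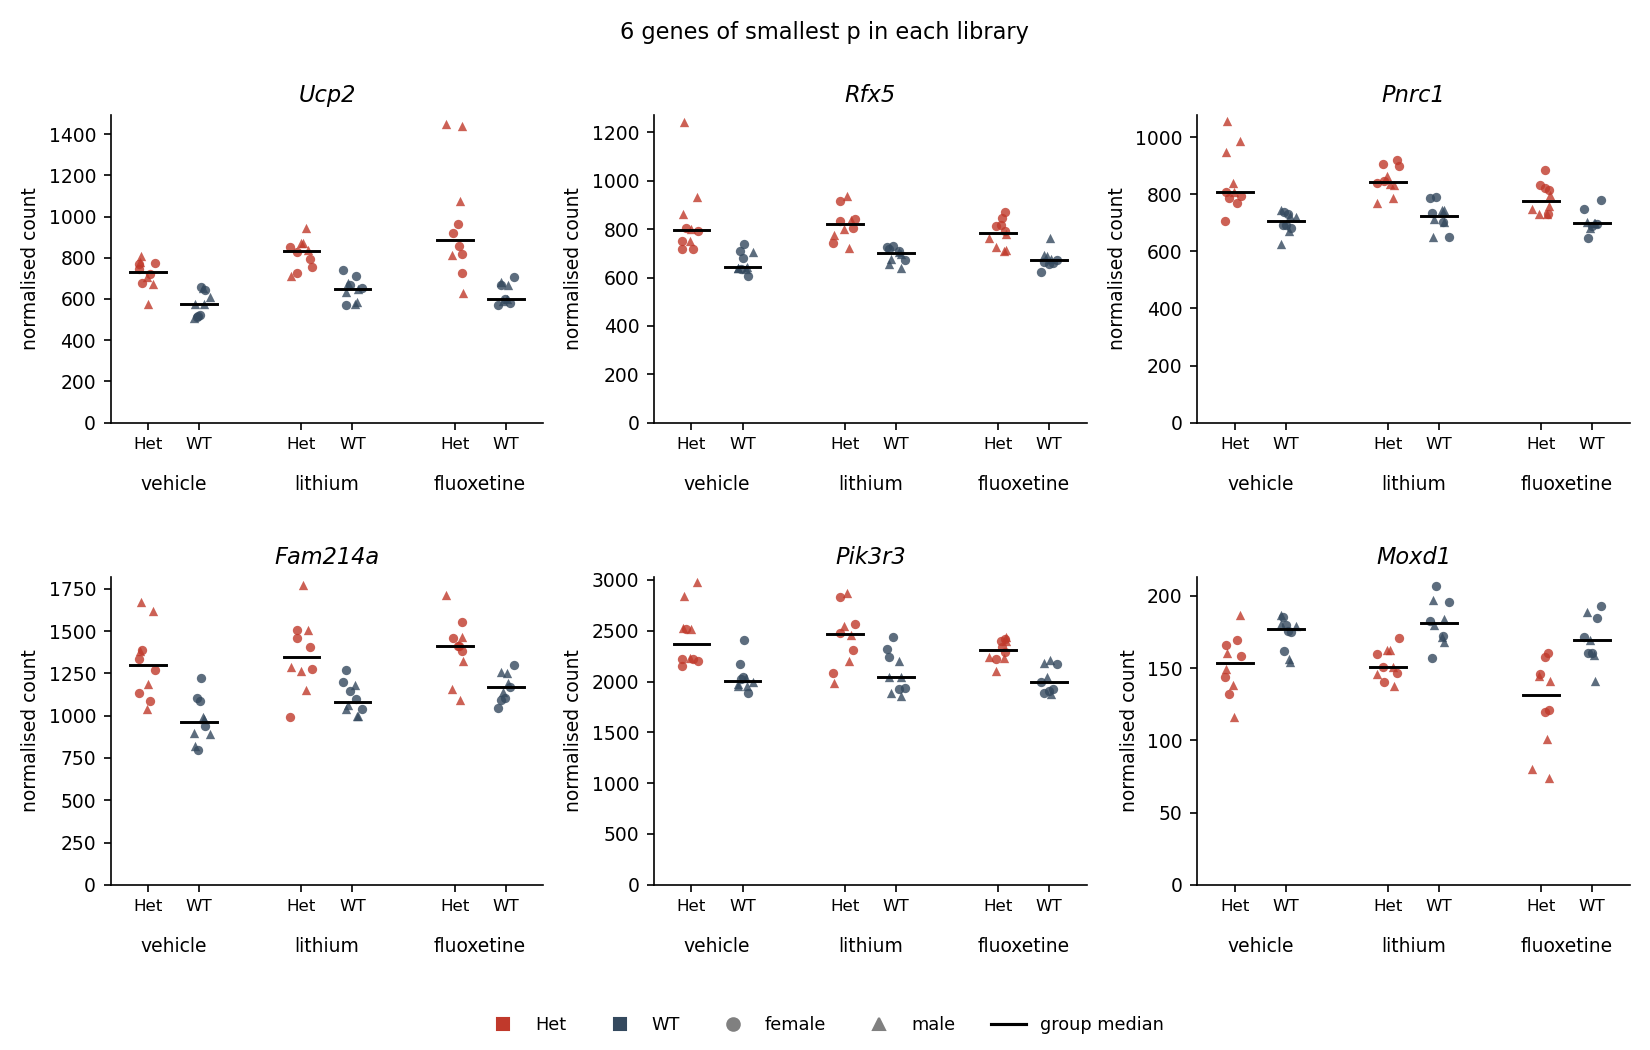
Normalised counts (y axes, from 0) in each library of the 6 genes of smallest p, by treatment and genotype, with circles for females, triangles for males and bars for medians. The Het median is above the WT median in each arm for Ucp2, Rfx5, Pnrc1, Fam214a and Pik3r3, and below it in each arm for Moxd1; the groups overlap at their edges.

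Pik3r3 and Pik3ip1, described here for their small p-values, were both higher in Het mice. Pik3r3, a regulatory subunit of phosphoinositide 3-kinase (chromosome 4, 116221618 to 116303056), ran from 1985 to 2977 with a median of 2368 normalised counts in Het mice, against 1858 to 2440.3 with a median of 2024 in WT mice (change 0.18 ± 0.026, adjusted p = 2.55e-05). Pik3ip1, which inhibits the catalytic subunit of that kinase, ran from 535 to 961 with a median of 691 in Het mice, against 475 to 693 with a median of 578 in WT mice (change 0.23 ± 0.038, adjusted p = 0.000307). 29 and 28 of 30 Het mice were above the WT medians of Pik3r3 and Pik3ip1. Ddit4, a stress-induced inhibitor of the mTORC1 kinase complex, changed by 0.31 ± 0.064 (adjusted p = 0.00506), Sesn2, a sestrin, by 0.23 ± 0.055 (adjusted p = 0.0213), and Trp53inp1, a p53-induced gene, by 0.26 ± 0.051 (adjusted p = 0.00367). Ddit4 was the 1 gene called by limma of 27 glucocorticoid responsive genes tested (0.916% of all genes rose), whose median was 0.13 with all libraries and 0.028 without the 2 fluoxetine males, and it still passed without them (0.23 ± 0.052, adjusted p = 0.0248). With all libraries edgeR called 5 of the 27, all higher, where 374 of 17901 genes rose. Sesn2 changed by 0.13 without both males (adjusted p = 0.0249) and did not pass when Het fluoxetine male replicate 4 alone was left out (adjusted p = 0.0551).

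Other rises called both ways spanned several functions. Fam214a (chromosome 9, 74952884 to 75032468) ran from 994 to 1773 with a median of 1384 normalised counts in Het mice, against 798 to 1301 with a median of 1093 in WT mice (change 0.27 ± 0.039, adjusted p = 2.55e-05), with 1 Het lithium mouse below all lithium WT mice. C4b, a component of the complement cascade, had the largest rise among called genes not below the median level: it ran from 326 to 1009.8 with a median of 554 in Het mice, against 264 to 605 with a median of 358 in WT mice (change 0.46 ± 0.082, adjusted p = 0.000895). C4b changed by 0.26 ± 0.14, 0.44 ± 0.14 and 0.65 ± 0.14 under vehicle, lithium and fluoxetine, an order not separated by the interaction test below. Rec8, a cohesin subunit known for its role in meiosis, was at low level and ran from 71.2 to 557 with a median of 173 in Het mice, against 55.9 to 221 with a median of 110.03 in WT mice (change 0.54 ± 0.09, adjusted p = 0.0003). All 10 Het mice under vehicle and all 10 under lithium were above the WT median of their arm for Rec8. Under fluoxetine 6 of 10 were, with 5 above and 3 below every WT mouse of that arm. Cacna1g, a T-type calcium channel (0.23 ± 0.052), Msi1, an RNA-binding protein of progenitors and astrocytes (0.18 ± 0.038), Wipf3, a regulator of the actin cytoskeleton (0.17 ± 0.033), the F-box protein Fbxo25 (0.07 ± 0.014) and the snoRNA host Snhg5 (0.15 ± 0.033) rose as well, with adjusted p values of 0.00367 to 0.015. Wipf3 was the 1 gene of the 39 not called without the bulb covariate (adjusted p = 0.0526).

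The largest rises that did not hold without the 2 fluoxetine males included Gfap, the intermediate filament of astrocytes. Its change was 0.41 ± 0.11 with all libraries (adjusted p = 0.0322) and 0.22 ± 0.07 without them (adjusted p = 0.189), and these 2 mice held 14903 and 14114 normalised counts where the other Het fluoxetine males held 3183 to 5664. Maml3, a Notch coactivator (0.28), Abca1, a cholesterol exporter (0.22), N4bp2 (0.24) and Lgr6 (0.23) likewise had adjusted p values of 0.125 to 0.22 without them. Lgr6 is also 1 of the 18 bulb list genes.

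The fall with the smallest p was that of Moxd1, a monooxygenase related to dopamine beta-hydroxylase (chromosome 10, 24223517 to 24302790). It ran from 74.1 to 187 with a median of 146 normalised counts in Het mice, against 141 to 207 with a median of 175 in WT mice, and 29 of 30 Het mice were below the WT median. The change was -0.34 ± 0.052 (adjusted p = 8.69e-05), with -0.25 ± 0.092, -0.28 ± 0.089 and -0.45 ± 0.09 by treatment, and -0.26 ± 0.043 without the 2 males, which held 80.2 and 74.1. Rcan2, a member of the calcineurin regulator family, ran from 3235 to 5047 with a median of 4269 in Het mice, against 3734 to 5376 with a median of 4807 in WT mice. It changed by -0.15 ± 0.029 (adjusted p = 0.00231), with -0.064 ± 0.05 under vehicle and -0.19 ± 0.048 and -0.19 ± 0.048 under lithium and fluoxetine. Of 10 Het mice per arm, 9 under lithium, 8 under fluoxetine and 0 under vehicle lay below all WT mice of that arm. The lowest WT vehicle mouse held 3734, with the next at 4578. Below the WT median of their arm were 9 Het mice under vehicle, 10 under lithium and 10 under fluoxetine. How many of all genes separate in this way was not counted. Kcnc2, a potassium channel of fast-spiking neurons, ran from 1687 to 2829 with a median of 2328 in Het mice, against 2275 to 3289.99 with a median of 2648 in WT mice (change -0.16 ± 0.032, adjusted p = 0.00294). Further falls called both ways were those of Dpy19l3, a C-mannosyltransferase (-0.16 ± 0.029), Ldhd, a D-lactate dehydrogenase (-0.20 ± 0.038), the RNA-binding protein Celf6 (-0.12 ± 0.025), Dnajc27 (-0.065 ± 0.013), Plekhb2 (-0.086 ± 0.017), Pstpip2 (-0.23 ± 0.05), Rflnb (-0.13 ± 0.035) and the proteasome subunit Psma8 (-0.61 ± 0.13), the last at low level. Their adjusted p values ran from 0.002 to 0.035. Rflnb lost its call when 1 of Het fluoxetine male 4, Het lithium female 3, Het vehicle female 4, WT fluoxetine male 2 or WT fluoxetine male 3 was left out (adjusted p = 0.0501 to 0.0648) and with the bulb list mean as covariate (0.0525).

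Of 26 cholesterol synthesis genes tested, 5 fell and 0 rose, where 1.34% of all genes fell. 21 of the 26 had a negative change, and the median was -0.057. Hmgcs1, which makes the precursor of mevalonate, ran from 6176 to 10824 with a median of 8788 normalised counts in Het mice, against 7851 to 12728 with a median of 10009 in WT mice, and 28 of 30 Het mice lay below the WT median. It changed by -0.19 ± 0.037 (adjusted p = 0.00367) and by -0.18 ± 0.067, -0.21 ± 0.065 and -0.18 ± 0.065 in the 3 arms. The squalene epoxidase Sqle (-0.13 ± 0.032), the isopentenyl diphosphate isomerase Idi1 (-0.14 ± 0.038), the sterol dehydrogenase Nsdhl (-0.12 ± 0.032) and the sterol carrier Stard4 (-0.13 ± 0.034) were the other 4. Without the 2 males Hmgcs1 alone was called (-0.16 ± 0.034, adjusted p = 0.0149), while the list median was -0.067. The myelin list had 0 of 28 called and a median of -0.016.

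In 5 neuronal lists most changes were below 0 and few genes were called. Over all tested genes 8959 of 17901 were below 0, and 1.34% fell and 0.916% rose, so a single call in lists of this size is near the share over all genes. Of 31 interneuron and GABA synapse genes, 25 were below 0 and 3 fell, among them the peptides Sst (-0.22 ± 0.06) and Vip (-0.15 ± 0.036). Sst ran from 1106 to 4293 with a median of 2857 normalised counts in Het mice, against 2656 to 4706 with a median of 3642 in WT mice, and 25 of 30 Het mice lay below the WT median. The adjusted p values of Sst and Vip without the 2 males were 0.0945 and 0.0592, and the list then held 0 calls. Of 46 glutamate receptor and postsynaptic genes 37 were below 0, and the receptor Grm5 fell (-0.22 ± 0.059). Of 41 presynaptic genes 34 were below 0 and 2 fell, Rims2 of the active zone (-0.12 ± 0.031) and the vesicle-priming protein Unc13c (-0.24 ± 0.051). Of 50 potassium channel genes 3 fell, Kcnc2, Kcng1 (-0.24 ± 0.059) and Kcnk2 (-0.15 ± 0.04), and Kcnt1 rose (0.12 ± 0.032). Of 32 cortical projection neuron genes 23 were below 0 and 1 fell, Rasgrf2 (-0.16 ± 0.043). The medians of these 5 lists ran from -0.074 to -0.042, against -0.00013 over all genes tested. In the same fit, which holds the bulb covariate, the bulb list still had 14 of 18 genes above 0 with a median of 0.082, and the striatal list 10 of 14 above 0 with a median of 0.095. The part of these tissue markers in the neuronal lists was not tested. Without the 2 males Kcnc2 was the 1 call left in the 5 lists.

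Other large falls, among called genes not below the median level, were those of Col19a1, a collagen (-0.33 ± 0.069), Lypd6 (-0.31 ± 0.067), the adhesion molecules Ncam2 (-0.29 ± 0.078) and Cntn6 (-0.25 ± 0.063), March1 (-0.24 ± 0.063), Sytl2 (-0.23 ± 0.064), Itgam, an integrin of microglia (-0.22 ± 0.06), and Sgtb (-0.21 ± 0.06). With Kcng1, Unc13c, Sst and Grm5 they make up the 12 largest, and 0 of the 12 were called without the 2 males, with adjusted p values of 0.0592 to 0.266.

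The remaining lists are read against the 0.916% of all genes that rose and the 1.34% that fell (2.25% either way), and no list was tested against those shares. Of 54 substrates and partners of DYRK1A tested, 2 rose and 1 fell: the receptor Notch1 (0.14 ± 0.037), the chromatin remodeller Rad54l2 (0.11 ± 0.03) and Rcan2. Rcan2 alone was called without the 2 males. Of 44 chromatin and transcription regulators linked to autism, 3 rose: Phf12, Chd8, a chromatin remodeller (0.074 ± 0.02), and the histone demethylase Kdm6b (0.22 ± 0.061). Of the 44, 36 were above 0, with a median of 0.046. Without the 2 males that median was 0.017, and Phf12 alone was called. The astrocyte list had 2 higher, Gfap and the cystathionine beta-synthase Cbs (0.14 ± 0.041), and S100b lower (-0.11 ± 0.024), of 24. Gadd45g rose among 34 immediate early genes (0.31 ± 0.073), Xaf1 among 32 interferon stimulated genes (0.27 ± 0.07) and Sesn2 among 28 stress response genes. Impact (-0.13 ± 0.031) and Ndn (-0.17 ± 0.046) fell among 34 imprinted genes, and Atp5s (-0.13 ± 0.036) among 82 oxidative phosphorylation genes. Itgam was the 1 fall among 24 microglia genes. Of the genes of these last 7 lists, from astrocyte to microglia, Sesn2 alone was called without the 2 males. Some lists with 0 or 1 call lay mostly on 1 side of 0: 28 of 32 interferon stimulated genes were above 0 with a median of 0.11, 23 of 26 proliferation and immature neuroblast genes with a median of 0.079, and 77 of 83 cytosolic ribosomal protein genes with a median of 0.038, while 66 of 82 oxidative phosphorylation genes were below 0 with a median of -0.017 and 17 of 22 heat shock chaperones with a median of -0.032. Without the 2 males the medians of these lists, in that order, were 0.058, 0.075, 0.025, -0.014 and -0.028. The ribosomal protein list had 0 calls. Striatal, oligodendrocyte precursor, endothelial, choroid plexus, meningeal, blood, proliferation, Wnt, heat shock and circadian lists had 0 calls in limma. Over all 17901 genes edgeR called 3.24%, 374 higher and 206 lower. It called 3 of 26 genes of the proliferation list, all higher in Het mice. It also called 1 each of the striatal, Wnt, heat shock, circadian, ribosomal protein and myelin lists, all higher. Single calls in lists of this size are near the share over all genes.

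Genes next to Dyrk1a were mostly not called. Of 16 tested genes within 1000000 bases of Dyrk1a on chromosome 16, 1 was called, with changes from -0.24 to 0.076 and a median of -0.013. It was Ttc3, a ubiquitin ligase (chromosome 16, 94370618 to 94469343), which ran from 19071 to 28925 with a median of 25866 normalised counts in Het mice, against 24296 to 30944 with a median of 27993 in WT mice. Its change was -0.10 ± 0.026 (adjusted p = 0.0374), and -0.068 ± 0.024 without the 2 males (adjusted p = 0.219). Its position overlaps that of Pigp, with a change of -0.0030, and reads shared by overlapping genes may not be told apart. Within 5000000 bases 1 of 72 tested genes was called, Ttc3. On chromosome 16 as a whole 14 of 537 genes were called (2.61%), and on the X chromosome 26 of 590 (4.41%), against 2.25% of all genes; the share of chromosome 16 is near that of all genes.

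No gene's effect differed between treatments or sexes by test. The interaction of genotype with treatment passed for 0 genes in limma (700 at an unadjusted p under 0.05, lowest adjusted p = 0.983) and for 0 in edgeR (704). The interaction with sex passed for 0 genes in limma (1770 at an unadjusted p under 0.05, lowest adjusted p = 0.488) and for 0 in edgeR (1942). Without Het fluoxetine male replicates 3 and 4, limma's unadjusted counts were 1060 for treatment and 596 for sex, again with 0 genes passing. Within single treatments limma called 0 genes under vehicle, 0 under lithium and 4 under fluoxetine (0.0223%), and edgeR 0, 0 and 13. At an unadjusted p under 0.05, 1402 genes (7.83%) were reached under vehicle, 838 (4.68%) under lithium and 3601 (20.1%) under fluoxetine. Without the 2 fluoxetine males these counts were 1557, 1067 and 1843 of 17861 genes, so the fluoxetine count depended on these mice. The 4 genes under fluoxetine were Ucp2 (0.54 ± 0.088), Rfx5 (0.26 ± 0.045) and Pik3r3 (0.24 ± 0.046), which rose, and Moxd1 (-0.45 ± 0.09), which fell.

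**Figure D5:**
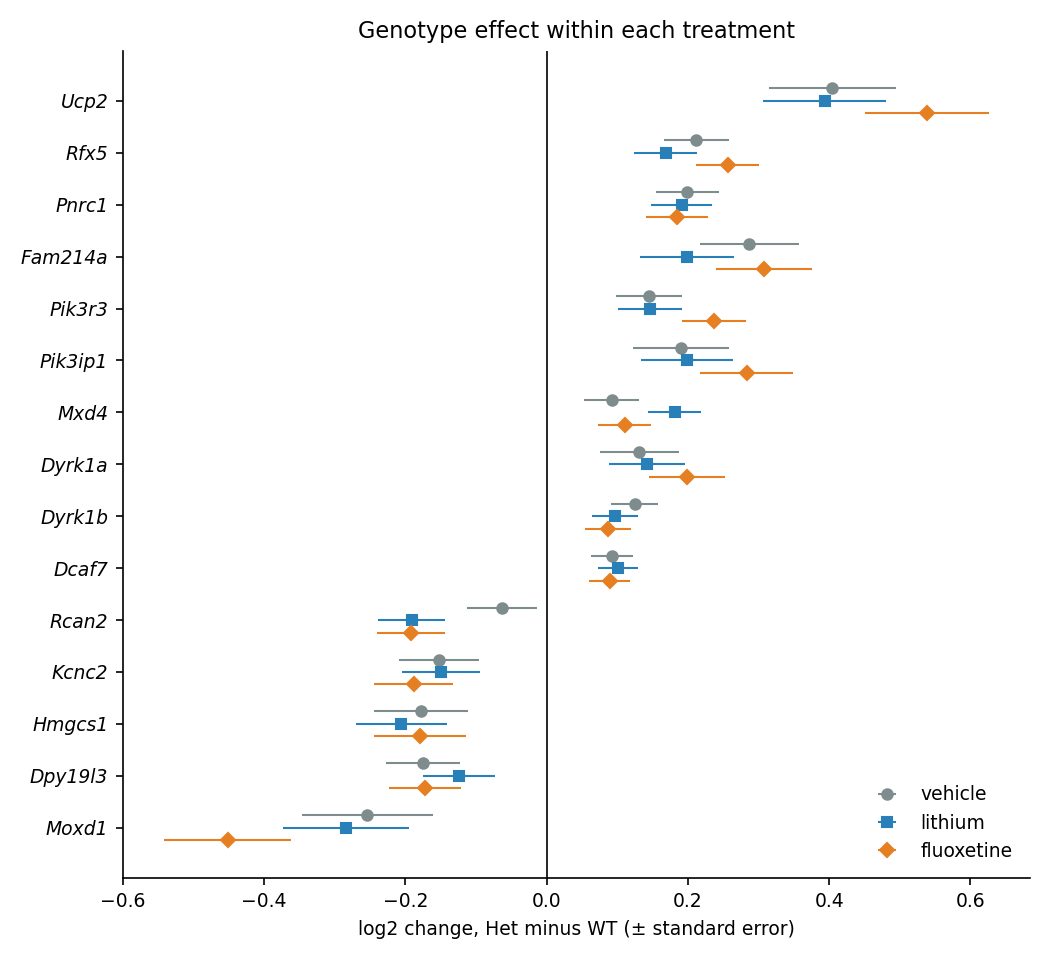
Log2 change, Het minus WT, with its standard error (x axis) in each treatment for 15 named genes (y axis), from 1 fit of all libraries. The 15 genes were picked from those called both ways, so that the 3 symbols of a gene lie on the same side of 0 is favoured by the choice. Rcan2 under vehicle is nearest to 0 at -0.064.

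Because the treatments share no mice, genes called in 2 of them could be read in the 3rd with separate fits. Lithium and fluoxetine mice together called 397 genes, of which 204 had the same sign in vehicle mice (51.4%, against 52% of all genes) and 28 the same sign with an unadjusted p under 0.05 (7.05%, against 5.22%). Without the 2 fluoxetine males, 116 were called there, 62 had the same sign in vehicle mice, and 15 did so with an unadjusted p under 0.05 (12.9%, against 4.43% of all genes). These 15 were Rfx5, Ucp2, Mxd4, Pnrc1, Fam214a, Dyrk1a, Dyrk1b, Dcaf7, Rec8, Pik3r3, Pik3ip1 and Zfp57, which were higher, and Moxd1, Rflnb and Hmgcs1, which were lower. Vehicle and fluoxetine mice called 10 genes, and in lithium mice 9 of these had the same sign with an unadjusted p under 0.05 (90%, against 7.95% of all genes): Rfx5, Ucp2, Pnrc1, Fam214a, Pik3r3, Pik3ip1 and Rec8 higher, and Moxd1 and Dpy19l3 lower. The 10th, Chrdl1, changed by 0.027 there. Without the 2 fluoxetine males 10 genes were again called there, and 9 had the same sign with that p in lithium mice (90%, against 8.52%): Ucp2, Rfx5, Pik3r3, Dyrk1a, Fam214a, Dcaf7, Pnrc1 and Rec8 higher, and Moxd1 lower. Vehicle and lithium mice called 9 genes, all with the same sign in fluoxetine mice, and 6 of them, Ucp2, Rfx5, Pnrc1, Mxd4, Fam214a and Dcaf7, had an unadjusted p under 0.05 there (66.7%, against 5.61% of all genes), and 7 without the 2 males (77.8%, against 10.5%). Dyrk1a changed by 0.104 ± 0.058 in that reading, where it did not reach that p, and by 0.095 ± 0.024 without the 2 males, where it did. Ucp2, Rfx5, Pnrc1 and Fam214a were on the list in each of the 3 readings, with and without the 2 males. The 3 readings use the same mice in turn, so they are not 3 separate tests. These genes are also among the 6 of smallest p in the pooled fit.

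Promoters were searched for CTCGCGA, the core of a palindrome at which DYRK1A is known to be recruited to chromatin in human cells, and for GTAAACA, a core recognised by forkhead factors. The windows were those of RefSeq from 250 bases before to 50 after the start site (GRCm38.p6), both strands were read, and the motifs do not overlap each other. Of the tested genes 12685 had a window, and 510 of these held the palindrome core (4.02%) and 400 the forkhead core (3.15%). Among called genes with a window, the palindrome core lay in 8 of 131 that rose (6.11%) and 2 of 179 that fell (1.12%), and the forkhead core in 4 (3.05%) and 8 (4.47%). Of the 32 genes called both ways with a window, 1 held the palindrome core, Dnajc27, and 0 the forkhead core. The windows are shown, with the core in capitals, for the called genes in which it lay within 100 bases of the start site. They are Atf7, a transcription factor of the ATF family (0.06 ± 0.016), Dnajc27 (-0.065 ± 0.013), Exosc10, a nuclease of the RNA exosome (0.075 ± 0.02), Upf3b, a factor of nonsense-mediated decay (0.10 ± 0.025), and Uvssa, a factor of transcription-coupled repair (0.18 ± 0.052). All but Dnajc27 were lost without the 2 males.
Atf7, chr15:102625460-102625516, minus strand: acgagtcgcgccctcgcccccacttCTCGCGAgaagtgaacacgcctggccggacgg
Dnajc27, chr12:4082554-4082610, plus strand: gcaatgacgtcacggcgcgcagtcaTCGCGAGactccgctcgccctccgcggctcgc
Exosc10, chr4:148558412-148558468, plus strand: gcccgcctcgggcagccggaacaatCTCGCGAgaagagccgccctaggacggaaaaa
Upf3b, chrX:37110360-37110416, minus strand: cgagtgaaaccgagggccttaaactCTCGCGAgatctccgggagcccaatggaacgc
Uvssa, chr5:33378638-33378694, plus strand: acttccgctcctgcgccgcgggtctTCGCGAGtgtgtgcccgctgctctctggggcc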

How the data were processed

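RNA sequencing libraries (TruSeq Stranded mRNA, per the labels' protocols) of 59 mice were analysed. The authors deposited 1 table of normalised values of 18088 genes, a signal equal to counts divided by a size factor per library. Salmon 0.11.2, R 3.6.0, DESeq2 1.19.11 and GRCm38 are named in the submitters' processing notes, with no role or order. Whole counts were recovered within 0.01 for 100% of values; in 3 libraries the step was within 1% of 1. 18077 identifiers matched a symbol, 11 did not, and 20 symbols stood for several identifiers.

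limma 3.58.1 (R 4.3.3) was fitted with a mean-variance trend to log2(value + 1), which understates changes of low genes, for 17901 genes with at least 10 in at least 4 libraries: treatment and sex blocks, the mean log2 level of Doc2g and Cdhr1, and genotype (53 residual degrees of freedom). Each ± after a log2 change is a standard error. Per-treatment, treatment-interaction and sex-interaction terms came from fits with 1 genotype effect per arm or sex. P-values were adjusted by Benjamini-Hochberg over all tested genes at 0.05. edgeR 4.0.16 on the recovered counts (580 calls) was an alternative. Other alternatives were pseudocounts, filters, scalings, covariates, blocks, weights and left-out libraries. Replicates differed by more than sampling noise (chi-square per gene 3.05 to 83.0 over 116 pairs).

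The members, the 31 gene lists and the tests were chosen with earlier results of these data known. Genes were named by rule: Dyrk1a, Doc2g and Cdhr1; of autosomal, named genes that were called with 1 sign at a level not below the median, the 12 that rose and the 12 that fell most; the 6 of smallest p; up to 4 members of smallest p per list (a list with 5 calls is named in full); up to 6 per interaction; and genes within 1000000 bases of Dyrk1a. 1 gene named by this rule is not reported here. The other genes called both ways, those listed by arm and those with a promoter motif were named after their values were seen. The fit was tested on simulated counts.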

Additional observations from a re-analysis of the deposited data

Results flagged for a closer look

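In 6 of 114 groups of genotype and treatment (19 measures in each of 6 groups), 1 mouse lay far from the others of its group, beyond Dixon's 95% limit; chance flags about 1 in 20 groups. In Het fluoxetine mice, male replicate 3 had the lowest Dcaf7 level, 7337 normalised counts, with the next at 8573, and it is 1 of the 2 males left out above. In Het lithium mice, male replicate 1 had 961 of Pik3ip1, with the next at 727. In Het vehicle mice, male replicate 3 had 1243 of Rfx5, with the next at 935. In WT fluoxetine mice, female replicate 2 had 2834 of Kcnc2, with the next at 2490.2, and male replicate 2 had 765 of Rfx5, with the next at 692. In WT vehicle mice, male replicate 1 had the lowest Rcan2 level, 3734, with the next at 4578. The calls of Dcaf7, Pik3ip1, Rfx5, Kcnc2 and Rcan2 held with any 1 library left out.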

How the results depend on the processing

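The 403 calls (164 higher, 239 lower) stayed within 1.5 times with a pseudocount of 5, no filter, a filter of 100, TMM factors, quantile normalization, 6 blocks of treatment and sex, the squared covariate, an added oligodendrocyte list mean and edgeR (290 to 580). They became 2984 with no bulb covariate, 176 with the bulb list mean as covariate, 247 with an added striatal list mean, 148 with array weights and 48 without Het fluoxetine male replicates 3 and 4. For genes with 1 sign in all treatments these counts were 2743, 175, 246, 147 and 48, against 400. Fewer mice gave 10 calls without the lithium arm, 9 without the fluoxetine arm, 16 in females and 3 in males, against 397 without the vehicle arm. Chosen after seeing the data, edgeR without the 2 males called 52, and limma without them and without covariate 5209, of which 4640 had 1 sign. Leaving out 1 library gave 68 to 1030 calls, and 68 to 1018 with 1 sign. The libraries that moved the count by over 1.5 times, with the count in brackets, were, by replicate number, Het fluoxetine female 5 (606), Het fluoxetine male 1 (813), 3 (106), 4 (68), 5 (1030), Het lithium female 3 (237), Het lithium male 1 (253), 4 (754), 5 (632), Het vehicle male 1 (1022), WT fluoxetine female 2 (232), WT fluoxetine male 1 (226), 2 (208), 3 (202), 4 (217), WT lithium male 1 (267), WT vehicle female 4 (794); the cause was not tested.

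Within treatments, the 0 vehicle calls became 685 with no covariate, 6 with the squared covariate and 5 with array weights, and 0 to 1 with 1 library left out. The 0 lithium calls became 1 with 6 blocks, 1 with no covariate, 3 with array weights, 2 without the 2 males and 2 in lithium libraries alone, and 0 to 1 with 1 library left out. The 4 fluoxetine calls became 2 with no covariate, 80 with the squared covariate, 7 with the oligodendrocyte mean, 13 in edgeR, 2 without the 2 males and 0 in fluoxetine libraries alone. Leaving out 1 library gave 2 to 296, the changes being at Het fluoxetine female 4 (25), Het fluoxetine male 2 (124), 4 (2), 5 (296), WT fluoxetine female 1 (7), 3 (2). Both interaction tests called 0 genes in every alternative and leave-one-out run. The Doc2g and Cdhr1 difference of 0.81 was 1.004 without the 2 males (permutation p = 0.0293) and 0.70 to 0.96 with 1 library left out, passing at 0.05 in 1 of 59 cases, without Het lithium female replicate 1 (p = 0.0462). Filters, blocks, covariates, weights and edgeR do not enter that test.

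Of 76 named genes 0 changed sign in 5623 values under alternatives, and 39 lost their call without the 2 males. Of the 37 called both ways, Pnrc2, Rflnb and Sesn2 lost theirs in 10 values with 1 library left out, and Pnrc2, Rflnb and Wipf3 in other alternatives. Over 29 same-numbered pairs of a Het and a WT mouse of 1 treatment and sex, the deviations correlated at -0.42 to 0.39 (median -0.043), 5 above 0.1. The labels do not say what a replicate number shares, so a shared litter or batch was not tested. With the replicate number as a block 512 genes were called, 508 with 1 sign, 0, 0 and 6 in the 3 treatments, and the Doc2g and Cdhr1 difference was 0.92 (permutation p = 0.117). In simulated libraries of this size the genotype test recovered 30% of genes changed 1.1-fold and 88% of those changed 1.5-fold. It made 9 false calls among 17866 genes, and changes near 1.1-fold were mostly missed. The counts were drawn for each gene on its own, with no outlying libraries beyond treatment, sex and the covariate. The real calls moved with single libraries, so these rates may not hold for these data.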
